A study of Mus musculus with 2 samples.

Results

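The 9 genes described here encode transcription factors that are known to set the effector and exhausted states of lymphocytes: Tox, Tox2, Nr4a2, Nr4a3, Eomes, Tbx21, Batf, Prdm1 and Id2. They were taken as a listed set out of 32285 genes in the count matrices, and each symbol occurred once. Immune cells were sorted as live CD45+ cells from liver tumors of the lenvatinib-resistant Trp53KO/MYCOE HCC mouse model and profiled by droplet scRNA sequencing of transcript 3′ ends, which counts unique molecular identifiers (UMIs). The model was made in wild-type male C57BL/6 J mice aged 6 to 8 weeks by tail vein injection of plasmids that carry human MYC and a guide against Trp53, so that hepatocytes, and not the immune cells, carry the lesions. Both groups received lenvatinib, a multikinase inhibitor, at 30 mg/kg for 25 days before the treatments diverged. One library was labelled lenvatinib and one was labelled lenvatinib and palbociclib (combo), palbociclib being a CDK4/6 inhibitor given at 100 mg/kg. No library without lenvatinib was used here, and the number of mice behind each library is not given in the sources used here.

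Exhausted T cells arise under lasting antigen exposure and keep inhibitory receptors such as PD-1, encoded by Pdcd1. Tox and its paralog Tox2 are high mobility group box factors needed to establish that state, and the orphan nuclear receptors Nr4a2 and Nr4a3 are induced by T cell receptor and calcium signals. Eomes and Tbx21 (T-bet) are T-box factors shared by CD8 T and NK cells. Batf is a basic leucine zipper partner of Jun proteins, Prdm1 (Blimp-1) is a repressor active in effector T cells and plasma cells, and Id2 holds E proteins inactive and is required for NK cells.

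Nr4a2 and Nr4a3 are immediate early genes whose start regions are known for cAMP response elements, so the bases just upstream of both are shown. The half-site TGACG and its reverse CGTCA are in capitals, and the strand is that of the gene. The Nr4a2 stretch is chr2:57124004-57124253 on the minus strand and the Nr4a3 stretch is chr4:48045055-48045152 on the plus strand, both from RefSeq on GRCm38.p6.
Nr4a2: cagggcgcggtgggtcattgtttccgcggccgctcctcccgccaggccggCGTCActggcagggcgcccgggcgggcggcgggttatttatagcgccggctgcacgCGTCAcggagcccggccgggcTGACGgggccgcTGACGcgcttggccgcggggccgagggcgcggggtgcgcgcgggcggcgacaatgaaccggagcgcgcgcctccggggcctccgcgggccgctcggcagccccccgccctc
Nr4a3: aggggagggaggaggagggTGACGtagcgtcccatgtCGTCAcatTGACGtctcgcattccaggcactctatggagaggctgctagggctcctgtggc
Both genes held 4 half-sites within 250 bases of the RefSeq start, at 200, 144, 123 and 111 bases before it in Nr4a2 and at 231, 213, 205 and 147 bases before it in Nr4a3, the last lying outside the stretch shown. At least 1 half-site was found in 17.8% of 32851 such windows and at least 4 in 0.137%. Batf and Prdm1 held 1 each, 1 of the Tox2 windows held 1, and Eomes, Tbx21 and Id2 held none. Start windows were matched for 8 of the 9 genes. The AP-1 (TGANTCA), NFAT core (GGAAA), NBRE (AAAGGTCA) and T-box (TCACACCT) motifs were searched as well. NFAT core matches, found in 55.6% of all windows, lay in windows of Tox2, Nr4a2, Tbx21 and Batf. An AP-1 match, found in 6.75% of all windows, lay in that of Prdm1. No NBRE or T-box match lay in the windows of these genes. These matches describe letters and not binding.

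In the GENCODE annotation of mm10, Tox lies at chr4:6686353-6991557 (minus strand), Tox2 at chr2:163203125-163324170 (plus), Nr4a2 at chr2:57106830-57124003 (minus) and Nr4a3 at chr4:48045153-48086447 (plus). Eomes lies at chr9:118478212-118486132 (plus), Tbx21 at chr11:97098071-97115331 (minus) and Prdm1 at chr10:44437177-44528501 (minus). Id2 lies at chr12:25093799-25097140 (minus) and Batf at chr12:85686669-85709087 (plus). The UMIs were counted per gene and do not tell isoforms apart.

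Cells were kept at up to 6000 detected genes and up to 25% mitochondrial UMIs, so that the lenvatinib library had 14201 cells and the combo library 11613, at medians of 5541 and 5754 UMIs per cell. Cells were gated by lineage genes. CD8 T cells had a UMI of Cd3e and Cd8b1 and none of Cd4 or Foxp3 (3273 cells under lenvatinib and 2524 under combo), CD4 T cells had Cd3e and Cd4 without Cd8b1 or Foxp3 (421 and 517), and Foxp3+ T cells had Cd3e and Foxp3 without Cd8b1 (392 and 50). NK cells had Ncr1 without Cd3e (2851 and 1264). Myeloid cells had at least 2 UMIs of Csf1r, Csf3r and Spi1 together and none of Cd3d, Cd3e, Cd3g, Ncr1 or Cd79a (929 and 2201). Levels are counts per 1e6 UMIs (CPM) of a gate's summed UMIs, with exact Poisson 95% intervals in brackets. Where a pair of values is given, lenvatinib comes first and combo second. Ratios are combo over lenvatinib with exact conditional intervals. With 1 library per condition there was no test, the intervals cover counting error only, and the treatment and the library cannot be told apart.

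Markers not used for gating followed the gates, as Cd8a, Cd3d, Cd3g and Trac summed to 2093 and 2590 CPM in CD8 T cells under lenvatinib and combo against 134 and 127 CPM in NK cells. The NK markers Klrb1c, Klrk1, Gzma and Itga2 summed to 4735 and 3483 CPM in NK cells, and Il2ra, Ikzf2 and Ctla4 to 3299 and 2579 CPM in Foxp3+ T cells against 233 and 253 CPM in CD8 T cells. Gates were not pure. The same 4 NK markers were all detected in CD4 T cells, at a sum of 644 and 189 CPM, and in Foxp3+ T cells at 343 and 141 CPM. The 5 myeloid markers Lyz2, Cst3, Fcer1g, Tyrobp and S100a8 were all detected in lymphocyte gates and were higher under combo in CD8 T cells (1217 and 7376 CPM) and in NK cells (4418 and 17498 CPM). The hemoglobin genes Hbb-bs and Hba-a1 summed to 226 CPM in CD8 T cells under lenvatinib and 3.15 CPM under combo. The share of cells with UMIs of at least 2 of 10 mitosis genes, each cell being thinned to 2000 UMIs, was 11.7% and 2.85% in CD8 T cells and 7.43% and 3.04% in NK cells. Over all genes with a mean of at least 5 CPM, the median ratio was 0.90 in CD8 T cells, 0.85 in CD4 T cells, 0.93 in Foxp3+ T cells, 0.90 in NK cells and 0.79 in myeloid cells, and ratios below are read against these medians.

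Each factor had its own distribution over the immune cells. The 6 gates described are CD8 T, CD4 T, Foxp3+ T, NK, myeloid and B cells, the last having at least 2 UMIs of Cd79a and none of Cd3e or Ncr1. Tox, Tox2, Batf and Prdm1 were highest in Foxp3+ T cells under lenvatinib, at 314 [291 to 337], 14.7 [10.2 to 20.6], 69.2 [58.9 to 80.8] and 107 [94.3 to 121] CPM, the Tox2 interval overlapping that of CD4 T cells [4.79 to 11.8]. Eomes, Tbx21, Nr4a2 and Id2 were highest in NK cells under lenvatinib, at 264 [258 to 271], 93.4 [89.4 to 97.5], 376 [368 to 384] and 900 [887 to 912] CPM. For Nr4a3, NK cells (224 CPM, 218 to 231) and Foxp3+ T cells (221 CPM, 202 to 241) did not differ beyond their intervals under lenvatinib.

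**Figure D1:**
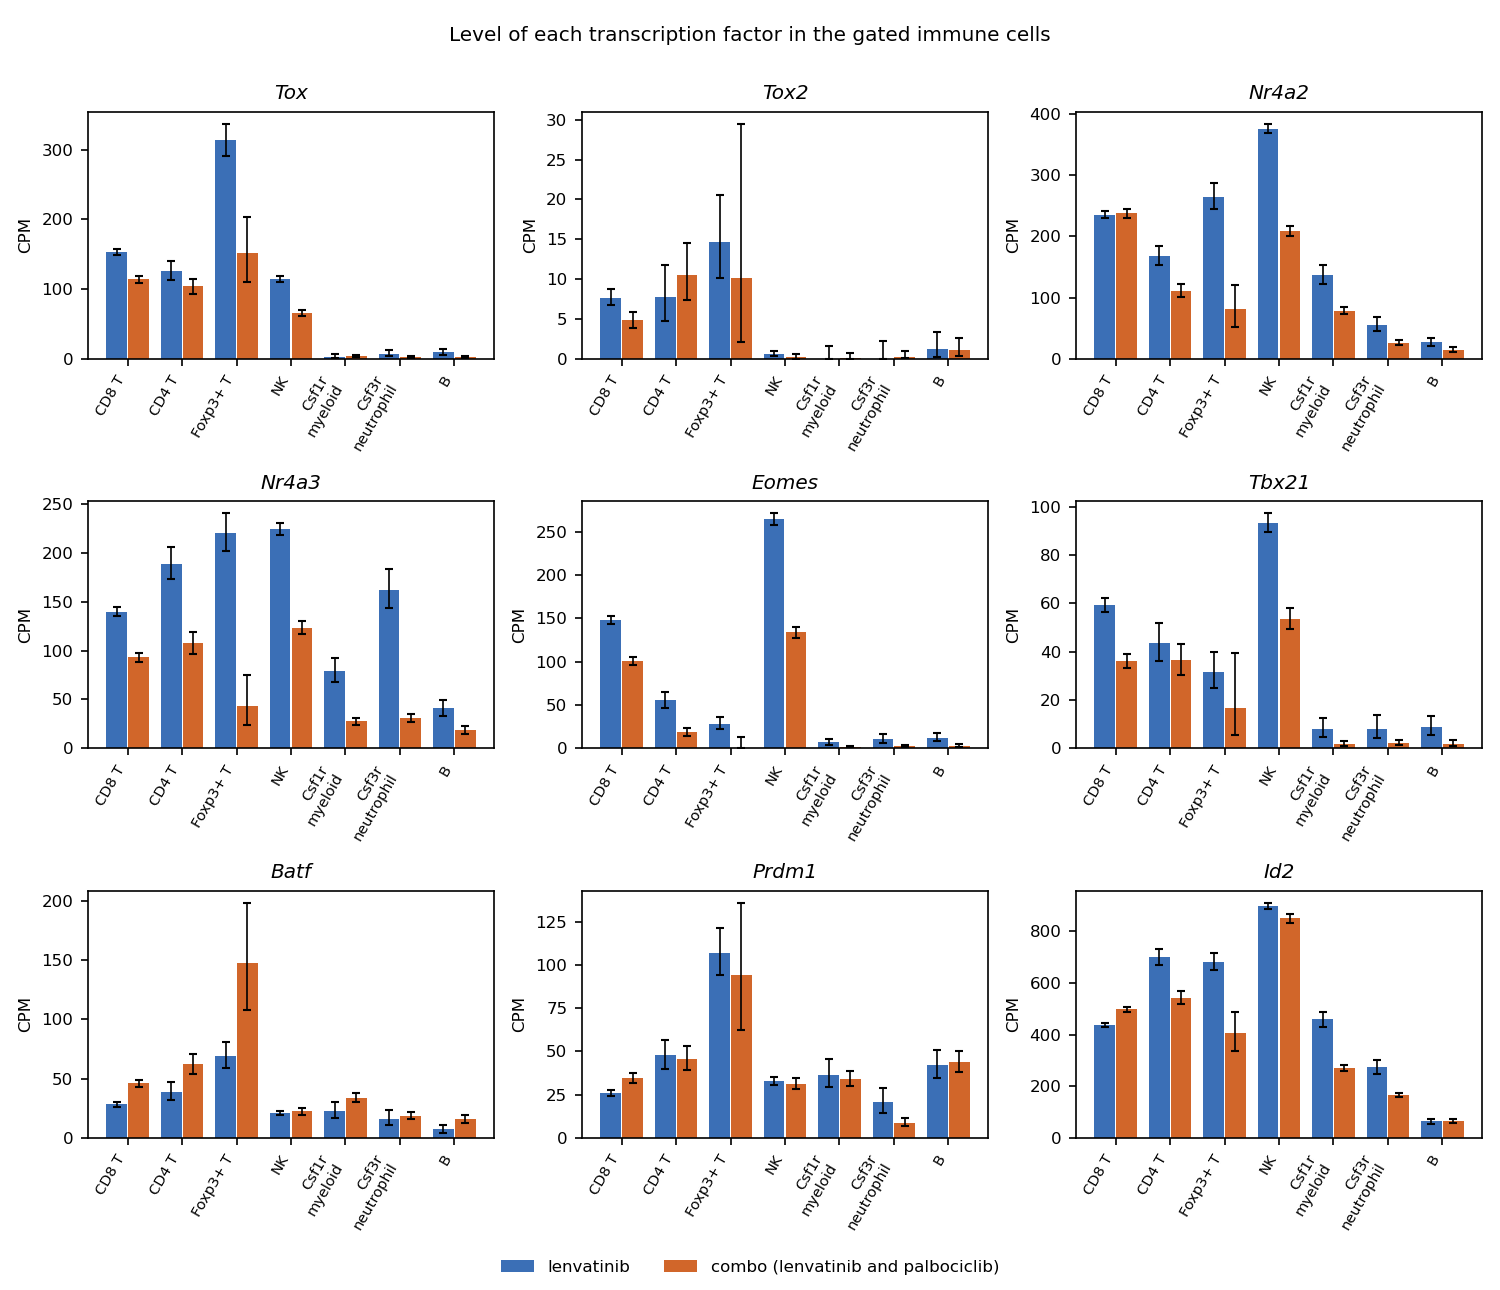
Level of each of the 9 transcription factors as CPM of summed UMIs in 7 gates of immune cells, under lenvatinib (blue) and combo (orange), with bars from 0 and exact Poisson 95% intervals that cover counting error only. Eomes and Tbx21 stand highest in NK cells, whereas Batf stands highest in Foxp3+ T cells in both libraries and Tox does so under lenvatinib, its combo interval in Foxp3+ T cells (110.5 to 203 CPM) overlapping that in CD8 T cells.

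Tox was 314, 153, 126 and 115 CPM in Foxp3+ T, CD8 T, CD4 T and NK cells under lenvatinib, against 9.35 CPM in B cells and 4.64 CPM in myeloid cells. Under combo it was 152, 114, 104 and 65.3 CPM in the same lymphocytes, 2.02 CPM in B cells and 3.61 CPM in myeloid cells. By value the order was Foxp3+ T, CD8 T, CD4 T and NK in both libraries. Under combo, however, the intervals of Foxp3+ T [110.5 to 203], CD8 T [109 to 119] and CD4 T cells [93.4 to 115] overlapped, so that these did not differ beyond counting error. Those of CD4 T [113 to 140] and NK cells [110 to 119] overlapped under lenvatinib. Tox2 was detected mainly in T cells, at 7.68 and 4.802 CPM in CD8 T and 7.73 and 10.5 CPM in CD4 T cells, and at 0.577 and 0.177 CPM in NK cells.

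Nr4a2 was 376 and 208 CPM in NK, 235 and 238 CPM in CD8 T, 265 and 80.8 CPM in Foxp3+ T, 168 and 111 CPM in CD4 T, 112 and 57.3 CPM in myeloid and 27.3 and 15.1 CPM in B cells. Under combo, NK cells no longer stood above CD8 T cells. Nr4a3 was 189 and 107 CPM in CD4 T, 140 and 93.1 CPM in CD8 T, 104 and 29.0 CPM in myeloid and 40.9 and 18.2 CPM in B cells. In neutrophils, here the myeloid cells with Csf3r and without Csf1r, Nr4a3 was 162 [143 to 183] CPM under lenvatinib and 31.0 CPM under combo. The lenvatinib interval overlapped that of CD8 T cells [136 to 144].

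Eomes was 264 and 134 CPM in NK, 148 and 100 CPM in CD8 T, 55.2 and 18.2 CPM in CD4 T and 28.1 and 0 CPM in Foxp3+ T cells. Tbx21 was 93.4 and 53.7 CPM in NK, 59.5 and 36.0 CPM in CD8 T, 43.5 and 36.4 CPM in CD4 T and 31.6 and 16.8 CPM in Foxp3+ T cells. Eomes thus followed the order NK, CD8 T, CD4 T and Foxp3+ T in each library. Tbx21 followed it by value under lenvatinib, but there CD4 T [36.0 to 52.0] and Foxp3+ T cells [24.8 to 39.7] did not differ beyond their intervals, and under combo neither did CD8 T [33.4 to 38.8], CD4 T [30.4 to 43.3] and Foxp3+ T cells [5.47 to 39.3]. In B cells Eomes was 12.1 and 2.47 CPM and Tbx21 8.96 and 1.80 CPM. The levels of both in myeloid cells (8.27 and 1.97 CPM for Eomes, 6.86 and 2.02 CPM for Tbx21) were in the range of B cells and were read as background.

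Prdm1 departed from the other factors in B cells, where it was 42.1 and 43.8 CPM against 25.9 and 34.5 CPM in CD8 T cells. In B cells a UMI of Prdm1 was found in only 1.91% and 3.54% of cells after thinning, against 6.49% and 8.19% of CD8 T cells. Batf was 69.2 and 148 CPM in Foxp3+ T, 38.7 and 62.3 CPM in CD4 T, 28.2 and 46.0 CPM in CD8 T, 21.0 and 22.3 CPM in NK and 7.01 and 15.5 CPM in B cells. Id2 was 900 and 851 CPM in NK, 701 and 543 CPM in CD4 T, 683 and 407 CPM in Foxp3+ T, 439 and 232 CPM in myeloid, 436 and 498 CPM in CD8 T and 63.1 and 64.3 CPM in B cells.

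The shares of cells with a UMI gave a view that does not weigh cells by their depth. After each cell was thinned to 2000 UMIs, Tox was found in 24.2% and 20.1% of CD8 T cells, Eomes in 23.1% and 17.6%, Nr4a3 in 22.5% and 16.7% and Tbx21 in 11.98% and 7.51%. Batf was found in 6.46% and 8.80%, Prdm1 in 6.49% and 8.19%, Id2 in 48.8% and 55.0%, Nr4a2 in 34.2% and 34.6%, and Tox2 in 1.35% and 0.964%. Before thinning, with median depths of 7367 and 5920 UMIs, the Tox shares of CD8 T cells were 50.9% and 41.7%, the Eomes shares 52.4% and 36.6%, the Nr4a2 shares 60.3% and 61.7% and the Batf shares 19.1% and 26.0%.

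As a background, B cells, which had median depths of 3297 and 3608 UMIs, gave thinned shares of 1.70% and 0% for Tox, 3.40% and 0.643% for Eomes, 1.70% and 0.482% for Tbx21 and 0.212% and 0% for Tox2. A count of 0 of 622 cells, as for Tox and Tox2 under combo, has an interval that reaches 0.591%. Tox, Eomes and Tbx21 in CD8 T cells therefore stood well above this background. The Tox2 share in NK cells (0.112%, and 0 of 1250 cells, with an interval that reaches 0.295%) did not.

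**Figure D2:**
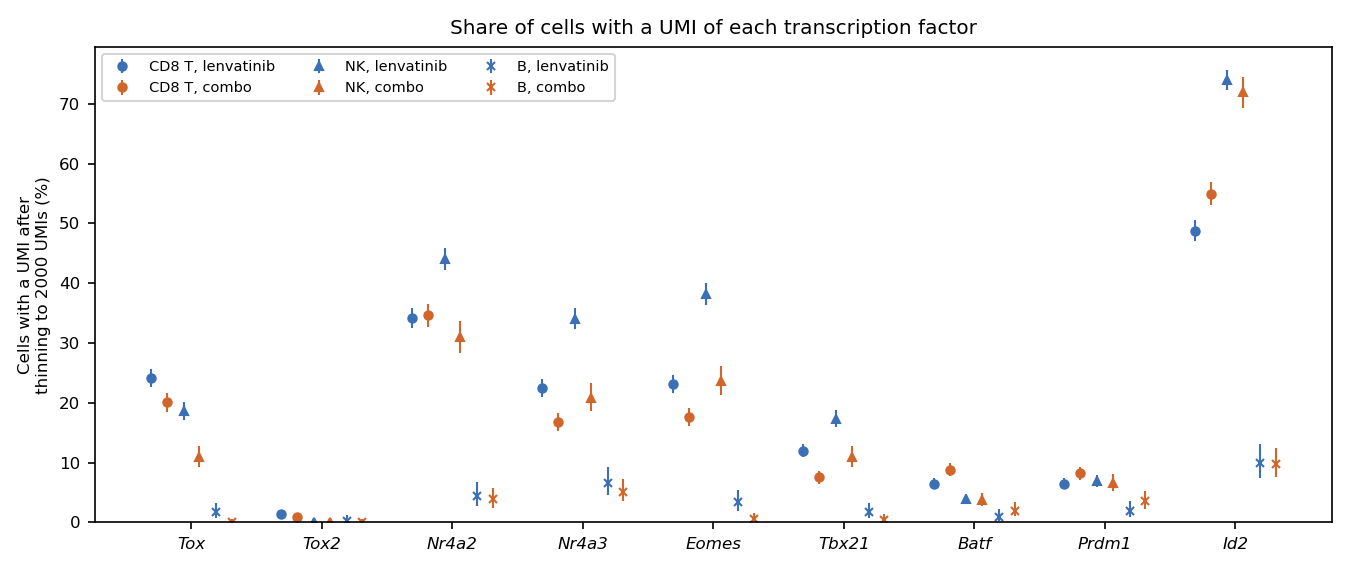
Share of CD8 T, NK and B cells with at least 1 UMI of each transcription factor after thinning every cell to 2000 UMIs, with exact Clopper-Pearson 95% intervals for counting error, under lenvatinib (blue) and combo (orange). B cells, shown as a background for Tox, Eomes and Tbx21, lie at 3.40% or less for these genes.

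In CD8 T cells Tox2, Nr4a3 and Tbx21 were past 1.5-fold lower and Batf was past 1.5-fold higher in the combo library, while Tox and Eomes had ratios below 1 that did not pass 1.5-fold. Tox was 153 [148 to 158] CPM under lenvatinib and 114 [109 to 119] CPM under combo, a ratio of 0.75 [0.71 to 0.79]. Tbx21 was 59.5 [56.7 to 62.4] and 36.0 [33.4 to 38.8] CPM, a ratio of 0.61 [0.55 to 0.66]. Eomes, at 148 and 100 CPM, had a ratio of 0.679 [0.642 to 0.717], and Nr4a3, at 140 and 93.1 CPM, a ratio of 0.665 [0.629 to 0.704]. Tox2 had a ratio of 0.63 [0.48 to 0.80] from 217 and 90 UMIs.

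Nr4a2 did not follow Nr4a3, with a ratio of 1.01 [0.97 to 1.05] from 235 and 238 CPM. Batf was 28.2 [26.3 to 30.2] and 46.0 [43.0 to 49.2] CPM, a ratio of 1.63 [1.48 to 1.80]. Prdm1, at 25.9 and 34.5 CPM, had a ratio of 1.33 [1.20 to 1.48] and Id2, at 436 and 498 CPM, a ratio of 1.14 [1.11 to 1.17]. A ratio was called when it passed 1.5-fold in either direction. Tox2, Nr4a3 and Tbx21 were called lower and Batf higher out of 9 factors, where 11.3% of 9070 genes were called lower and 4.39% higher (15.7% in either direction). Under most alternatives Nr4a3 lay just inside the threshold. The median of the 9 ratios was 0.75, against 0.90 over all genes. When ratios were divided by the median ratio of genes with at least 10 CPM, Batf alone stayed past 1.5-fold, at 1.82, and Tbx21 was 0.68, Tox2 0.70, Nr4a3 0.74, Eomes 0.76 and Tox 0.83, all still below 1, whereas Nr4a2 was 1.13.

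**Figure D3:**
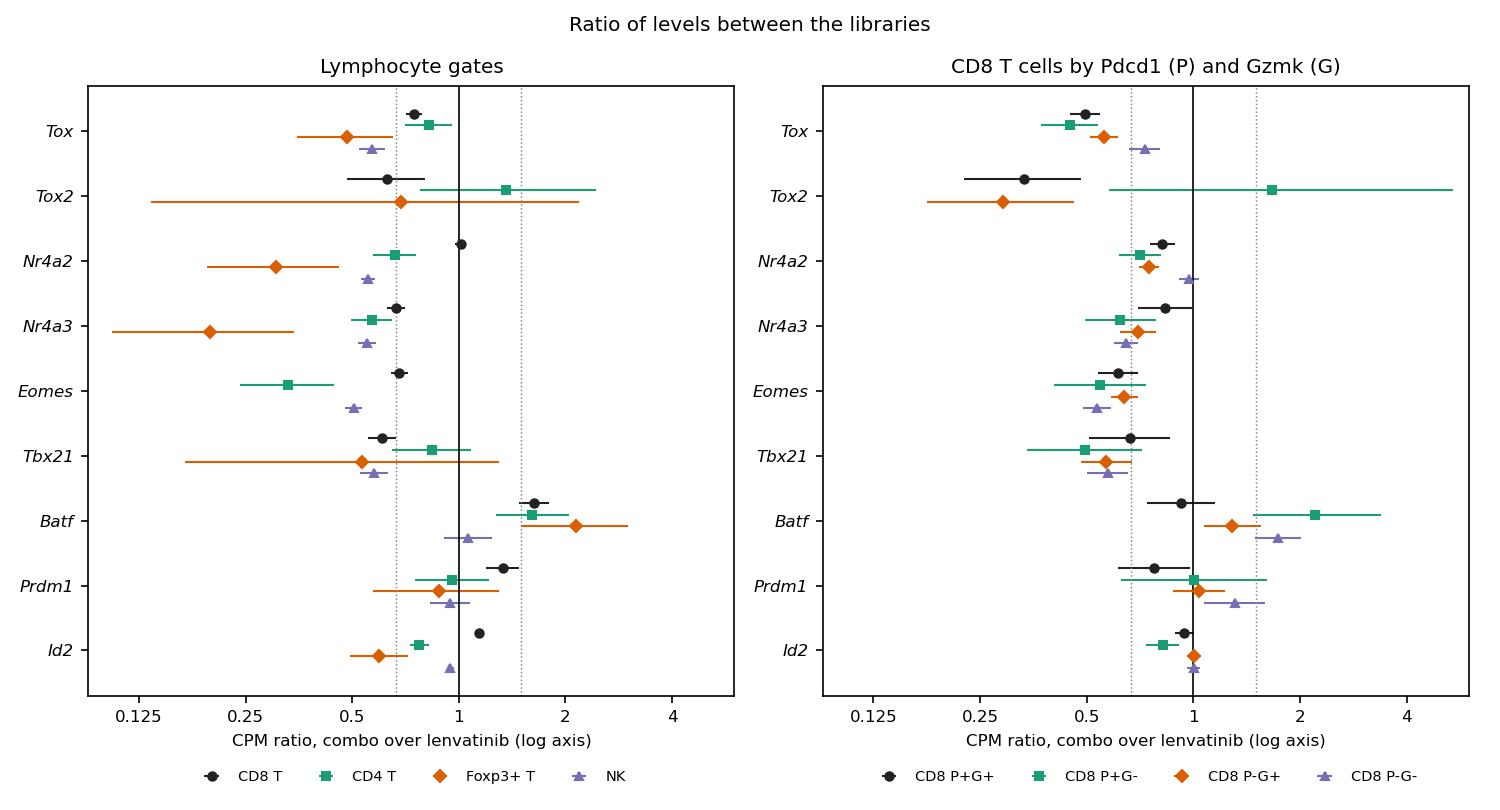
Ratio of CPM, combo over lenvatinib, on a log axis with exact conditional 95% intervals for counting error, in 4 lymphocyte gates (left) and in CD8 T cells split by a UMI of Pdcd1 (P) and Gzmk (G) (right). Dotted lines mark 1.5-fold, genes under 5 CPM and Eomes in Foxp3+ T cells (0 UMIs under combo) are left out, and the Eomes and Tbx21 points of all 4 CD8 gates lie left of 1.

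Pdcd1 and Gzmk, a granzyme of memory-like and pre-exhausted CD8 T cells, were used to split these cells. Cells with a Pdcd1 UMI were 12.8% of CD8 T cells under lenvatinib and 21.7% under combo (5.33% and 10.3% after thinning), and cells with a Gzmk UMI were 30.8% and 50.5% (17.4% and 29.7% after thinning). Cells with a Pdcd1 UMI had median depths of 6250 and 5463 UMIs against 7542 and 6060 for cells without.

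Tox and Tox2 separated the cells with a Pdcd1 UMI most. Tox was 423 CPM with and 114 CPM without a Pdcd1 UMI under lenvatinib, a ratio of 3.70 [3.48 to 3.94], and 203 and 89.4 CPM under combo, a ratio of 2.27 [2.08 to 2.48]. Tox2 was 31.8 and 4.21 CPM under lenvatinib (7.56 [5.74 to 9.96]) and 12.8 and 2.59 CPM under combo (4.93 [3.18 to 7.70]). Nr4a2 was 465 and 202 CPM under lenvatinib and 365 and 202 CPM under combo, so that cells without Pdcd1 had the same level in both libraries. Batf was 56.0 and 24.2 CPM under lenvatinib (2.31) and 64.1 and 41.0 CPM under combo (1.56).

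These 4 factors were past 1.5-fold higher in both libraries, against 3.59% of 8691 genes, and 0 of the 9 were lower, against 1.54%. Prdm1 (2.58 and 1.43) and Id2 (1.83 and 1.44) passed in the lenvatinib library only. Tbx21 had ratios of 1.05 and 1.05 and Nr4a3 of 0.90 and 1.04, close to 1 in both libraries, and Eomes had 1.38 and 1.21. The ratio of with to without was lower under combo for Tox, Nr4a2, Batf, Prdm1 and Id2, with intervals that did not overlap between the libraries.

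**Figure D4:**
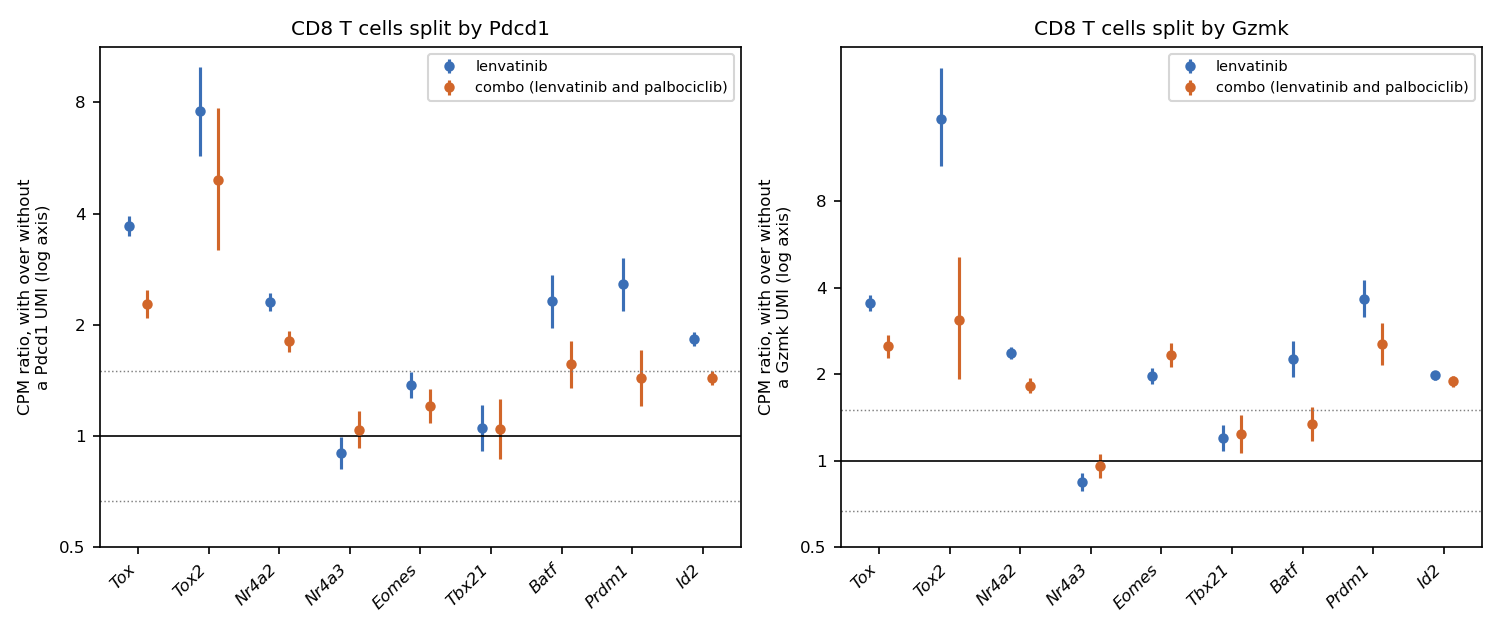
Ratio of CPM in CD8 T cells with over without a UMI of Pdcd1 (left) and of Gzmk (right) for each transcription factor, on log axes with exact conditional 95% intervals for counting error, under lenvatinib (blue) and combo (orange). Tox2 stands highest by value in both splits, but its combo interval in the Gzmk split (1.93 to 5.14) overlaps those of other factors such as Prdm1 and Tox. Nr4a3 and Tbx21 stay within 1.5-fold of 1.

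Tox was higher in cells with more Pdcd1 UMIs. Under lenvatinib Tox was 114 CPM in cells without, 380 CPM in cells with 1 and 488 CPM in cells with 2 or more Pdcd1 UMIs, and under combo it was 89.4, 182 and 233 CPM. Tox2 was 4.21, 18.7 and 51.8 CPM under lenvatinib and 2.59, 10.9 and 15.4 CPM under combo. Eomes was 141, 188 and 204 CPM under lenvatinib but 96.1, 128 and 98.9 CPM under combo, where the cells with most Pdcd1 had no more Eomes than those without. Tbx21 was 59.1, 61.6 and 63.1 CPM and 35.7, 37.8 and 36.7 CPM, with overlapping intervals within each library. Nr4a3 was 142, 136 and 115 CPM under lenvatinib and 92.2, 90.2 and 104 CPM under combo. The steps held 2855, 272 and 146 cells under lenvatinib and 1977, 334 and 213 under combo.

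**Figure D5:**
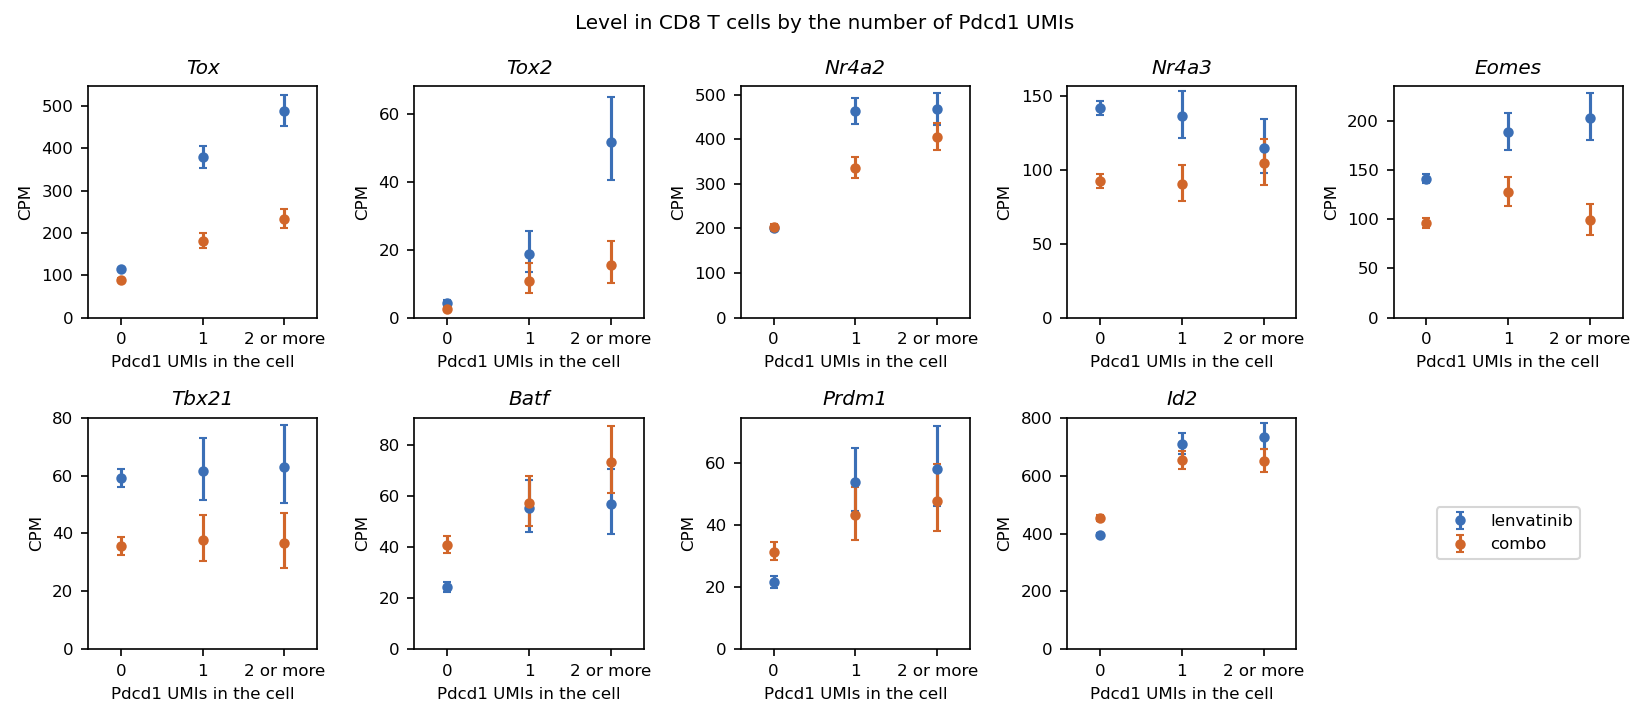
Level of each transcription factor (CPM of summed UMIs) in CD8 T cells with 0, 1, and 2 or more Pdcd1 UMIs, under lenvatinib (blue) and combo (orange), with exact Poisson 95% intervals for counting error. Tox goes from 114 to 488 CPM under lenvatinib and from 89.4 to 233 CPM under combo, while Tbx21 is flat in each library.

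The split by Gzmk brought in Eomes, Prdm1 and Id2. Eomes was 231 CPM with and 117 CPM without a Gzmk UMI under lenvatinib (1.98 [1.86 to 2.10]) and 146 and 62.5 CPM under combo (2.33 [2.12 to 2.57]). Prdm1 was 55.0 and 15.0 CPM under lenvatinib (3.66) and 51.5 and 20.2 CPM under combo (2.55). Id2 was 682 and 344 CPM and 670 and 354 CPM, ratios of 1.99 and 1.89. Tox (3.54 and 2.50), Tox2 (15.5 and 3.10) and Nr4a2 (2.37 and 1.83) were higher here as well, which gave 6 of 9 factors higher in both libraries against 3.86% of 8676 genes, and 0 were lower, against 1.83%. Tbx21 (1.21 and 1.24), Nr4a3 (0.84 and 0.96) and, under combo, Batf (2.26 and 1.34) stayed within 1.5-fold.

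The cells with both UMIs held the most Tox. In these 285 and 389 cells Tox was 465 [438 to 492] CPM under lenvatinib and 229 [212 to 248] CPM under combo, a ratio of 0.49 [0.45 to 0.54]. Tox2 was 42.7 and 14.2 CPM there, a ratio of 0.33 [0.23 to 0.48]. In cells with neither UMI (2133 and 1092) Tox was 78.0 and 56.9 CPM, a ratio of 0.73 [0.66 to 0.81]. The interval of the Tox ratio in cells with both UMIs lay below that in cells with neither, and no test over libraries was possible.

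All 4 gates made by the pair of genes had lower Tox, Nr4a2, Nr4a3, Eomes and Tbx21 under combo, although the interval of Nr4a2 in cells with neither UMI reached over 1. Their ratios ranged from 0.45 to 0.73 for Tox, 0.71 to 0.97 for Nr4a2, 0.62 to 0.83 for Nr4a3, 0.54 to 0.64 for Eomes and 0.49 to 0.66 for Tbx21. After division by the all-gene median ratio of each gate, Nr4a2 in cells with neither UMI was 1.10 and the other values for these 5 factors stayed below 1. Nr4a2 (0.97) and Nr4a3 (0.98) were, however, close to 1 in cells with both UMIs. In cells with both UMIs, 4 of 9 factors were called lower (Tox, Tox2, Eomes and Tbx21) against 22.5% of 9125 genes, and 0 were called higher against 6.38%. In cells with Pdcd1 only, 4 were lower and 2 higher (Batf and Tox2) against 23.9% and 11.6% of genes. Tox2 rested there on 6 and 12 UMIs, with a ratio of 1.67 [0.58 to 5.42] whose interval covered 1. In cells with Gzmk only, 4 were lower and 0 higher against 16.1% and 5.27%. The Tox2 ratio was 0.29 [0.18 to 0.46] with Gzmk only and 1.09 [0.52 to 2.20], under the minimum, with neither UMI. Lower Tox2 was thus seen only in the gates with a Gzmk UMI. In cells with neither UMI, 3 of the 8 factors past the minimum were lower and 1 was higher against 12.5% and 4.13%.

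The Nr4a2 level of the whole CD8 gate did not differ beyond its interval between the libraries although all 4 gates had ratios below 1, in 3 of them with an interval below 1, and the Gzmk and Pdcd1 cells, in which Nr4a2 was high, made up a larger share under combo. With the levels of the combo library weighted by the UMI shares of the 4 gates under lenvatinib, the ratio of Nr4a2 was 0.86, that of Tox 0.59, that of Eomes 0.58 and that of Tbx21 0.58. Id2 then had a ratio of 0.98 and Prdm1 of 1.08, as against 1.14 and 1.33 in the cells as found. Batf had a ratio of 1.47, which no longer passed 1.5-fold. All-gene median ratios of the 4 gates ran from 0.85 to 0.89, and the weighted Nr4a2 ratio lay within that range. The part of the mix of cells in the Nr4a2 level was not tested. Batf was higher under combo in 3 of these 4 gates and was 20.4 and 35.3 CPM in cells with neither UMI (1.73 [1.49 to 2.02]), 32.5 and 71.7 CPM in cells with Pdcd1 only (2.21 [1.47 to 3.38]) and 65.8 and 60.7 CPM in cells with both (0.92 [0.74 to 1.15]).

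Other factors of T cell differentiation were examined as a list of 32 genes, of which 29 passed the minimum in CD8 T cells. There 8 were called lower and 2 higher, with a median ratio of 0.85, against the shares of 11.3% and 4.39% given above. Satb1, a chromatin organizer, was 511 and 220 CPM (0.43), Tcf7, which encodes the stem-like factor TCF-1, was 279 and 174 CPM (0.63), and Ikzf2 was 136 and 79.0 CPM (0.58). Myb was 50.9 and 29.8 CPM (0.59) and Nfatc2, a calcium-dependent partner of AP-1, was 52.9 and 32.4 CPM (0.61). Higher were Zeb2, a repressor active in terminal effector cells, at 49.1 and 98.5 CPM (2.00), and Jun, which pairs with Batf, at 262 and 416 CPM (1.58).

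Of 23 inhibitory receptors, effector molecules and other surface receptors, 22 passed the minimum in CD8 T cells, and 9 were called higher and 2 lower, against 4.39% and 11.3% of all genes, with a median ratio of 1.28. Gzmb, the cytotoxic granzyme B, was 285 and 900 CPM (3.16), Cx3cr1 was 7.11 and 15.3 CPM (2.15), Pdcd1 was 24.4 and 51.3 CPM (2.10), Gzmk was 85.0 and 171 CPM (2.01) and Ctla4 was 82.1 and 162 CPM (1.98). Il2rb, which encodes a receptor chain for interleukin-2 and interleukin-15, was lower at 593 and 340 CPM (0.57). Thus Pdcd1 and Ctla4 passed 1.5-fold higher in the CD8 T cells in which Tox had a ratio of 0.746 that did not pass. All 10 mitosis genes were lower there, with a median ratio of 0.31, and their part in the ratios of the 9 factors was not tested beyond the removal of cycling cells, which left 3 factors lower and 1 higher.

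NK cells had lower levels of Tox, both nuclear receptors and both T-box factors in the combo library. Eomes was 264 [258 to 271] and 134 [127 to 140] CPM, a ratio of 0.50 [0.48 to 0.53]. Nr4a2 was 376 and 208 CPM (0.55 [0.53 to 0.58]), Nr4a3 224 and 123 CPM (0.55 [0.52 to 0.58]), Tox 115 and 65.3 CPM (0.57 [0.52 to 0.62]) and Tbx21 93.4 and 53.7 CPM (0.57 [0.52 to 0.63]). These 5 of the 8 factors past the minimum were called lower, against 12.1% of 9132 genes, and 0 were called higher, against 5.49%. The median of the 8 ratios was 0.57, against 0.90 over all genes.

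Batf (1.06 [0.91 to 1.24]), Prdm1 (0.95 [0.83 to 1.08]) and Id2 (0.95 [0.92 to 0.97]) stayed within 1.5-fold, and after division by the all-gene median ratio Prdm1 and Id2 were both 1.04. Thinned shares followed the levels, with Eomes in 38.2% and 23.7% of NK cells, Tbx21 in 17.3% and 10.9% and Id2 in 74.0% and 71.9%. The 5 ratios of Tox, Nr4a2, Nr4a3, Eomes and Tbx21 stayed past 1.5-fold under all 9 alternatives run for NK cells, among them the removal of cells with a UMI of Csf1r, Csf3r or Cd79a and the removal of cycling cells. Of the other list, 8 of 30 factors past the minimum were lower and 4 higher in NK cells. Among them Irf4 was 8.84 and 2.12 CPM (0.24), Nfatc2 36.2 and 19.5 CPM (0.54), Gata3 80.1 and 44.1 CPM (0.55), Batf3 3.46 and 6.81 CPM (1.97), Klf2 594 and 1070 CPM (1.80) and Rora 66.4 and 117 CPM (1.77).

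Itga1, which encodes the CD49a integrin of tissue-resident NK cells and type 1 innate lymphoid cells, divided the NK cells into 711 and 258 cells with and 2140 and 1006 cells without a UMI. Eomes is known to mark conventional NK cells and to be low in type 1 innate lymphoid cells. With Itga1, Eomes was 199 and 73.4 CPM, a ratio of 0.37 [0.32 to 0.43], and without it 291 and 155 CPM, a ratio of 0.53 [0.50 to 0.56]. Tbx21 had ratios of 0.63 [0.53 to 0.74] and 0.56 [0.50 to 0.62]. As a share of the UMIs of both genes together, Eomes made up 66.2% [64.1 to 68.3] and 53.5% [48.5 to 58.4] in cells with Itga1 and 76.4% and 75.5% in cells without, so that the balance differed between the libraries in cells with Itga1 beyond counting error and not in the others. The 4 NK markers summed to 5358 and 2399 CPM in cells with Itga1 and to 4481 and 3862 CPM in cells without, and the part of this in the Eomes values was not tested. In CD8 T cells this share was 71.3% and 73.6%. Prdm1 was 29.8 and 17.4 CPM in cells with Itga1 (0.58 [0.42 to 0.80]) and 34.2 and 35.9 CPM in cells without (1.05 [0.91 to 1.21]). Of the 8 factors past the minimum, 6 were lower and 0 higher with Itga1, against 15.3% and 7.1% of genes, and 5 were lower and 0 higher without, against 13.3% and 5.84%.

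In CD4 T cells Eomes had the lowest ratio of the 9 factors. It was 55.2 [46.8 to 64.8] CPM under lenvatinib and 18.2 [14.0 to 23.2] CPM under combo, a ratio of 0.33 [0.24 to 0.44]. The NK gene Ncr1 was 50.5 and 24.7 CPM in the same cells, beside the NK marker sums given above, and its part in the Eomes ratio was not tested. Nr4a3 was 189 and 107 CPM (0.57 [0.50 to 0.65]) and Nr4a2 168 and 111 CPM (0.659 [0.574 to 0.756]). Batf was 38.7 and 62.3 CPM (1.61 [1.27 to 2.05]), but its ratio was 1.41, short of the threshold, when cells with a UMI of Csf1r, Csf3r or Cd79a were left out.

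Out of 9 factors 3 were lower and 1 was higher, against 22.5% and 5.19% of 9313 genes, although Nr4a2 no longer passed 1.5-fold under 7 of the 9 alternatives run. The median ratio was 0.82 against 0.85 over all genes. Tox (0.82 [0.71 to 0.95]) and Tbx21 (0.84 [0.65 to 1.08]) were near the all-gene median, and Tox2 (1.36 [0.78 to 2.45]) and Prdm1 (0.96 [0.75 to 1.21], and 1.12 after division by the all-gene median ratio) had intervals that covered 1. Eomes thus made up 56.0% [49.8 to 62.0] of the UMIs of both T-box genes under lenvatinib and 33.3% [26.7 to 40.5] under combo. Among the other factors, Ikzf2, which encodes Helios, was 432 and 106 CPM (0.24), Irf8 was 304 and 148 CPM (0.49) and Klf2 608 and 1107 CPM (1.82).

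The Foxp3+ T cells numbered 50 under combo, so that their values rest on few UMIs, and 25.9% and 16.9% of 9508 genes were past 1.5-fold lower and higher there. Of the 9 factors 6 were lower and 1 was higher. Nr4a3 was 221 [202 to 241] CPM from 511 UMIs under lenvatinib and 43.8 [23.3 to 74.8] CPM from 13 UMIs under combo, a ratio of 0.20 [0.10 to 0.34]. Nr4a2 was 265 and 80.8 CPM (0.31 [0.19 to 0.46]) and Tox 314 and 152 CPM (0.48 [0.35 to 0.65]). Id2 was 683 and 407 CPM (0.60 [0.49 to 0.72]).

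Eomes had 65 UMIs under lenvatinib and 0 under combo, a ratio of 0 [0 to 0.45], and Ncr1 was 34.2 and 6.73 CPM beside it. Tbx21 (0.533 [0.168 to 1.302]) and Tox2 (0.687 [0.135 to 2.18]) rested on 5 and 3 UMIs under combo and their intervals covered 1. Batf was 69.2 and 148 CPM from 160 and 44 UMIs (2.14), but the ratio was 1.09 when cells with a UMI of Csf1r, Csf3r or Cd79a were left out, 1.26 without cycling cells and 1.28 when 2 UMIs of each gate gene were required. Batf was therefore not called in these 3 settings. Irf4, which acts together with Batf, was 25.5 and 70.7 CPM (2.77), Klf2 was 348 and 919 CPM (2.64), Tcf7 was 65.3 and 6.73 CPM (0.10 [0.012 to 0.38]) and Myb was 56.7 and 10.1 CPM (0.18 [0.036 to 0.53]) in the same cells, the last 2 from 2 and 3 UMIs under combo.

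In myeloid cells the nuclear receptors and Id2 were lower in the combo library. Nr4a3 was 104 [95.3 to 113] and 29.0 [26.6 to 31.6] CPM, a ratio of 0.28 [0.25 to 0.32], Nr4a2 was 112 and 57.3 CPM (0.51 [0.46 to 0.57]) and Id2 was 439 and 232 CPM (0.53 [0.50 to 0.56]). Of 6 factors past the minimum 4 were lower, the fourth being Eomes at its background level, and 0 were higher, against 26.9% and 3.49% of 8890 genes. The median of the 6 ratios was 0.52 and that of all genes 0.79. Nr4a1, the third member of the family, was 590 and 319 CPM (0.54) in these cells, a gene named for its family. Of the other factors 16 of 28 past the minimum were lower and 0 higher, with Irf4 (14.3 and 3.77 CPM, 0.26) and Nfatc2 (19.6 and 7.43 CPM, 0.38) furthest.

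Lower Nr4a3 was found in both subsets of myeloid cells examined, which leave out cells gated by Spi1 alone. The dendritic cell markers Flt3, Xcr1 and Ccr7 summed to 112 and 29.1 CPM in the whole myeloid gate. Their part in its ratios was not tested. In cells with Csf1r, the receptor of monocytes and macrophages, Nr4a3 was 79.5 and 27.6 CPM (0.35 [0.28 to 0.42]), and in neutrophils it was 162 and 31.0 CPM (0.19 [0.16 to 0.23]). Id2 had ratios of 0.59 and 0.61 in the same gates, but after division by the all-gene median ratio these were 0.68 and 0.82, inside 1.5-fold, whereas Nr4a3 was 0.40 and 0.26. Prdm1 was 36.6 and 34.1 CPM in Csf1r cells (0.93 [0.73 to 1.21]) but 20.5 and 8.78 CPM in neutrophils (0.43 [0.28 to 0.67]). Myeloid cells differed in depth between the libraries, with medians of 3104 and 5728 UMIs. After thinning, Nr4a3 was found in 18.5% and 7.33% of myeloid cells, Id2 in 35.6% and 28.8% and Nr4a2 in 13.3% and 9.31%. Within Csf1r cells, however, the thinned shares of Id2 (36.9% and 35.4%) and Nr4a2 (15.4% and 15.1%) had overlapping intervals, while Nr4a3 was found in 13.6% and 7.61%. Counts called lower and higher were 3 and 0 of 5 factors in Csf1r cells, against 22.6% and 4.7% of genes, and 6 and 0 of 7 in neutrophils, against 39.9% and 5.21%. In B cells 5 of 8 were lower and 1 higher, against 42.3% and 4.7%. The neutrophil calls include Eomes (10.5 and 2.66 CPM) and Tbx21 (8.06 and 2.13 CPM), both in the range of B cells and read as background. Those in B cells include Tox, Eomes and Tbx21, for which B cells served as the background.

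Across gates the combo library thus had lower Nr4a3 in all 5 main gates and lower Nr4a2 in each of them but CD8 T cells, and these directions held after division by the all-gene median ratio. Batf was the factor with ratios above 1 in all 5 gates, although in NK cells its interval covered 1. Without cells with a UMI of Csf1r, Csf3r or Cd79a its ratio was 1.09 in Foxp3+ T and 1.41 in CD4 T cells. In CD8 T cells with both Pdcd1 and Gzmk UMIs it was 0.92.

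The 22 profiles formed by 11 gates in 2 libraries were used to name the genes most like each factor by Pearson's r of log2(CPM + 1), among about 7774 genes with a mean of at least 10 CPM. Profiles share libraries and are not replicates, so that these values are descriptions. Tbx21 was most like Pitpnc1 (0.97) and Ctsw (0.97), the latter encoding a protease of cytotoxic cells. Eomes was most like Wdr95 (0.96) and Klrc2 (0.95), an NK receptor gene. Tox was most like Tnfsf10 (0.97) and Prkar1a (0.97), Tox2 most like Zdhhc2 (0.93) and Crbn (0.93), and Id2 most like Itpk1 (0.95) and Bhlhe40 (0.95). Nr4a2 was most like Vopp1 (0.94) and Padi2 (0.94), Nr4a3 most like Celf2 (0.90) and Spred2 (0.90), Batf most like Ttc39c (0.90) and Elob (0.88), and Prdm1 most like Mif4gd (0.86) and Maf (0.84). Within the 9, the closest profiles were those of Nr4a2 and Id2 (0.90), Tox and Tbx21 (0.88) and Eomes and Tbx21 (0.86), and the profile of Eomes had an r near 0 with those of Batf (0.0071) and Prdm1 (-0.016).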

How the data were processed

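For each library the authors deposited a matrix of unnormalized UMI counts, made with Chromium Next GEM 3′ v3 chemistry and aligned to mm10. The submitters' processing notes name Cell Ranger 5.0.1 and the matrix headers 6.0.1. The libraries held 14509 (lenvatinib) and 11989 (combo) barcodes with 98107503 and 93583402 UMIs, and 49 barcode sequences occurred in both. The study's filter (at most 6000 genes and 25% mitochondrial UMIs) removed 308 and 376 barcodes. Genes with a mean of at least 5 CPM over both libraries entered the counts of called genes, for which 1.5-fold was the threshold. Cells shallower than 2000 UMIs were left out of thinned shares (84 and 34 CD8 T cells, 173 and 14 NK cells, 177 and 128 myeloid cells). Python 3.11.15, numpy 2.4.6 and scipy 1.17.1 were used, and the steps were tested on simulated data. Scrublet (scanpy 1.11.5, expected doublets 6%) called 634 cells (4.46%) and 320 cells (2.76%), which were left out only in an alternative. It called none under lenvatinib with another random seed.

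The 9 factors, the other gene lists and the gates were chosen with earlier results of these data known. Named genes were the 9 factors in every gate, gate and marker genes, up to 6 genes of each list furthest from a ratio of 1 in each direction, and the 2 genes most like each factor. Nr4a1 in myeloid cells was named outside this rule, after its values were seen. No sample-level test was made with 1 library per condition. Sequences and motif windows came from RefSeq (GRCm38.p6). Both strands were searched. The values of 1 gene of the receptor and effector list are not reported here.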

Additional observations from a re-analysis of the deposited data

Results flagged for a closer look

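Id2 and Prdm1 had ratios on opposite sides of 1 in different gates, with intervals that excluded 1 on both sides. The ratio of combo to lenvatinib for Id2 was 1.14 in CD8 T cells, but 0.77 in CD4 T, 0.60 in Foxp3+ T, 0.95 in NK and 0.53 in myeloid cells. For Prdm1 it was 1.33 in CD8 T cells and 0.79 in myeloid cells. The differences between gates were not tested, since each gate has 1 library per condition. After division by the all-gene median ratio, Id2 was 1.28 in CD8 T, 0.91 in CD4 T, 0.64 in Foxp3+ T, 1.04 in NK and 0.66 in myeloid cells, and Prdm1 was 1.49 in CD8 T and 0.99 in myeloid cells, so that Id2 in NK cells changed side. With the combo levels weighted by the shares of the Pdcd1 and Gzmk gates under lenvatinib, the CD8 T ratio of Id2 was 0.98, on the other side of 1, and that of Prdm1 was 1.08.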

How the results depend on the processing

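The 10 alternatives to the cell filter, doublets, gates, total, scaling and averaging were applied to the 24 ratios past 1.5-fold in CD8 T, CD4 T, Foxp3+ T, NK and myeloid cells, and gave 217 values. All 217 kept their direction and 193 stayed past 1.5-fold. Leaving out cells with a UMI of Csf1r, Csf3r or Cd79a did not change the myeloid gate, so its values there repeat the main ones. Division by the all-gene median ratio lowered the number of called factors in CD8 T cells from 4 to 1. Nr4a3 in CD8 T cells, at 0.67, lay at the threshold and moved between 0.65 and 0.74, and Nr4a2 in CD4 T cells, at 0.66, moved between 0.59 and 0.77 and no longer passed under 7 of 9 alternatives. The Batf ratio in Foxp3+ T cells moved between 1.09 and 2.56. The share of all genes past 1.5-fold in CD8 T cells was 15.7%, 20.6% with a minimum of 1 CPM and 12.6% with a minimum of 20 CPM. After the Gzmk split was made on thinned cells, 4 of 9 factors in place of 6 were higher in both libraries. The Pdcd1 split gave 4 with or without thinning, but 3 to 5 under the other alternatives, where the Gzmk split gave 5 or 6. The Pdcd1 count was 3 without mitochondrial, ribosomal and hemoglobin genes, without cycling cells and as a mean over cells. It was also 3 without cells with a UMI of Csf1r, Csf3r or Cd79a, and 5 when 2 UMIs of each gate gene were required.

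No paired analysis was possible because each condition has 1 library, and leaving out a library would leave nothing to compare. Intervals cover counting error only, and differences between mice, sorts and libraries are not in them. Depth limits Tox2 throughout and all factors in the 50 Foxp3+ T cells under combo.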
